A study of Triticum aestivum with 2 samples.

Results

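The genes described here are 99 wheat genes whose transcripts lay at the rim of cross sections of the distal root and which the study's table of spatially supported tissue markers does not list. They were chosen by their measured values on the chip of the distal root region. The choice used 3 circles drawn over sections of that chip and asked for at least 100 MIDs (molecular identifiers, 1 for each captured transcript molecule) in the circles. At least 50% of these had to lie between 0.85 and 1 of the circle's radius, the outermost zone, and the gene's level had to be within 4-fold between circle 1 and circles 2 and 3 together. Levels are given as CPM, the MIDs of a gene per 1000000 MIDs of nuclear genes in the same area. IDs ending in LC (low confidence gene models) were left out. Of the 96646 gene IDs recorded on the chip, 7387 passed the filters on name and MIDs, 136 of these (1.84%) also had the required share in the outermost zone, and 99 passed all filters. Gene IDs are given as deposited, and the first digit and letter after TraesCS name the chromosome and the subgenome (A, B or D) of hexaploid wheat.

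The study used Stereo-seq, in which a frozen tissue section is laid on a chip of barcoded spots that capture RNA in place, on Chinese Spring wheat seedlings grown in soil. Cross sections 10 μm thick came from 2 regions, the root cap region and the distal root region, with 1 chip and 1 library for each and no treatment named in the labels (called here the cap chip and the distal chip). With 1 library for each region no test between regions or sections was possible, so limits given here are exact 95% Poisson or binomial limits and cover counting error only. Sections of a chip are not replicates, and neither the labels nor the files say which root or height each came from.

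The outer surface of a root is formed by the epidermis, whose cells carry root hairs further from the tip, and around the tip by the root cap, whose outer cells are shed. These layers meet soil and microbes first, and genes known from them in grasses include chitin-binding lectins, cell wall proteins, peroxidases and enzymes that release defence compounds. In sections of whole tissue, fewer cells of a type and less RNA per cell cannot be told apart.

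On the cap chip 3054140 MIDs of nuclear genes lay within 10 section outlines, from 90332 in section 8 to 641497 in section 7, out of 28281662 on the chip. Sections 1 to 5 and 6 to 10 formed 2 series on the chip, so that sections 1 and 6, 2 and 7, 3 and 8, 4 and 9, and 5 and 10 held the same place in their series. The 19 genes of the study's root cap list gave 1759 MIDs in these sections, and 1619 of them (92.0%) lay in sections 5 and 10. In the 4 sections of the distal chip they gave no MID, where the floor for a count of 0 is 0.412 CPM. The map of the 99 genes shows their MIDs in 4 of these sections.

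**Figure D1:**
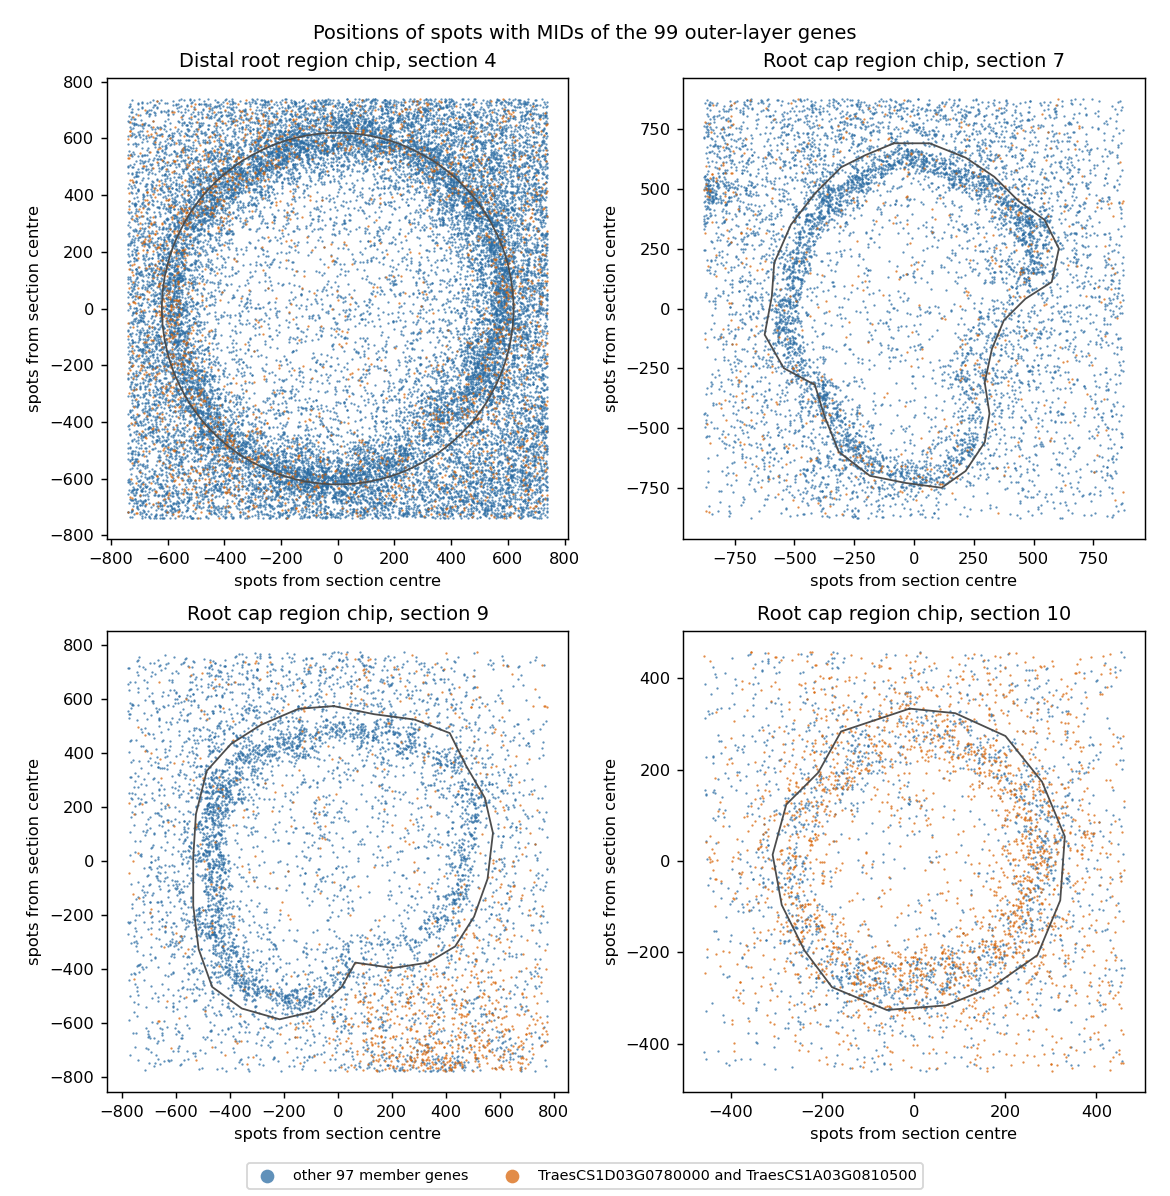
Positions of spots with MIDs of the outer-layer genes in section 4 of the distal chip, not used for the choice, and in sections 7, 9 and 10 of the cap chip, with axes in spots from the section centre and the outline as a line. The pair TraesCS1D03G0780000 and TraesCS1A03G0810500 is orange and the other 97 genes blue; MIDs form a rim inside the outline, orange points are frequent in section 10, and those at the lower right of the panel of section 9 lie towards section 10.

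The agglutinin gene TraesCS7D03G1077100, named agglutinin isolectin 3-like in the study's tables, is of the wheat germ agglutinin family, lectins that bind chitin. In the circles it had 643 MIDs with 75.3% in the outermost zone, a value that the choice used. In the distal section that the choice did not use, 79.6% of its 378 MIDs lay there (limits 75.2 to 83.6%), against 27.8% of the MIDs of all nuclear genes. On the cap chip it gave 1214 MIDs, of which 59.1% lay in the outermost zone. Its excess over the share of all MIDs, section by section, was 0.99 on the log2 scale (0.88 to 1.09).

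Its level in sections 1 to 10 of that chip was 409, 494, 77.6, 412, 406, 557, 354, 99.6, 314 and 521 CPM. The agglutinin gene was therefore low in sections 3 and 8 and lay between 314 and 557 in the other 8. Among the other 98 genes, TraesCS7B03G0987600, which has no name in the tables, followed it most closely, with a Pearson correlation of 0.98 over the 10 sections. These points share 1 library and differ in depth, so the correlation is a description. The levels of TraesCS7B03G0987600 were 298, 449, 48.5, 288, 283, 413, 256, 99.6, 245 and 382 CPM, again lowest in sections 3 and 8. The next most similar gene, TraesCS2A03G0209800, had a correlation of 0.88 and only 92 MIDs on the chip.

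The values that chose the 99 genes are given as a description. The genes had between 100 and 4855 MIDs in the circles (median 187) and 31039 in all. Between 50.0% and 80.5% of a gene's MIDs lay in the outermost zone, with a median of 61.8%. The 10 genes with the most MIDs were TraesCS2D03G1268900 (4855), TraesCS1D03G0780000 (1303), TraesCS3A03G0742300 (1091), TraesCS2B03G1540200 (1073), TraesCS3A03G1064300 (943), TraesCS1A03G0810500 (904), TraesCS6D03G0024300 (772), the agglutinin gene (643), TraesCS5D03G0868800 (601) and TraesCS7D03G0620600 (597). The first, which gave 15.6% of all MIDs of the set, is named a glucoside beta-D-glucosidase of benzoxazinoids, the enzyme that frees the toxic aglucones of these cereal defence compounds from their stored glucosides. The cut-offs fell within a continuous range of values. TraesCS2D03G0972100 and TraesCS5D03G0500800 were just inside the minimum with 100 and 101 MIDs, and TraesCS6D03G0698600 and TraesCS7D03G1080100 just outside with 97 and 98. TraesCS2B03G1539300 and TraesCS7D03G0914900 had 50.0% of their MIDs in the outermost zone, and TraesCS7A03G0949600 and TraesCS2D03G0735800 were left out at 49.6% and 49.7%. By the fold between circles, TraesCS5D03G0659200 (0.251), TraesCS4D03G0117900 (0.262), TraesCS2D03G0319500 (3.39) and TraesCS4A03G0657700 (3.51) were just inside. TraesCS3B03G1278300 (0.213), TraesCS1A03G0810300 (0.234), TraesCS4A03G0657600 (4.16) and TraesCS2A03G1335600 (4.72) were just outside. This fold left out 37 genes, 12 that were low and 25 that were high in circle 1. Circle 1 covers its section only in part, so its outermost zone need not follow the rim throughout. The part of this in the fold was not tested.

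The study's tables, read here in shortened copies that hold only some of its single-cell clusters, gave a protein name to 32 of the 99 genes, 7 of them as uncharacterized proteins. The other 67 had no name in these copies. The named genes fall into several kinds. Cell wall and surface proteins were an expansin-B2-like protein, which loosens cell walls, a putative glycine-rich cell wall structural protein and a polygalacturonase, which cuts pectin. Defence and redox proteins were 3 genes named pathogenesis-related protein PRMS-like, a cationic peroxidase, a glutathione S-transferase, a quinone-oxidoreductase, a berberine bridge enzyme-like oxidase and a momilactone A synthase-like protein, named after an enzyme of a rice defence compound. Proteins of secretion, transport and signalling included 3 subtilisin-like proteases SBT5.3, a protein DETOXIFICATION 40-like, of a family of efflux carriers, 2 apyrases, which hydrolyse nucleotides, an auxin-responsive protein IAA13-like and 3 ethylene-responsive transcription factors RAP2-13-like.

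The section of the distal chip that the choice did not use gave a first view of the set outside the circles. It shares the chip and the library with the circles. There 9327 of 13978 MIDs of the 99 genes lay in the outermost zone, or 66.7% (65.9 to 67.5%), against 27.8% for all nuclear genes. The study's epidermis list of 18 genes, none of which belongs to the set, had 77.4% there. By gene, 89 of the 99 had at least 50% of their MIDs in the outermost zone. Of the 7183 genes that passed the filters and had at least 20 MIDs in the section, 2.95% did. The median of the 99 was 70.3%. The lowest was TraesCS5D03G1075000 with 34.2% and the highest TraesCS1D03G0222800, the glutathione S-transferase gene, with 95.7% of 23 MIDs (78.1 to 99.9%), so that each of the 99 exceeded the share of all genes. The glucosidase gene, with 2187, gave the most MIDs in this section.

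**Figure D2:**
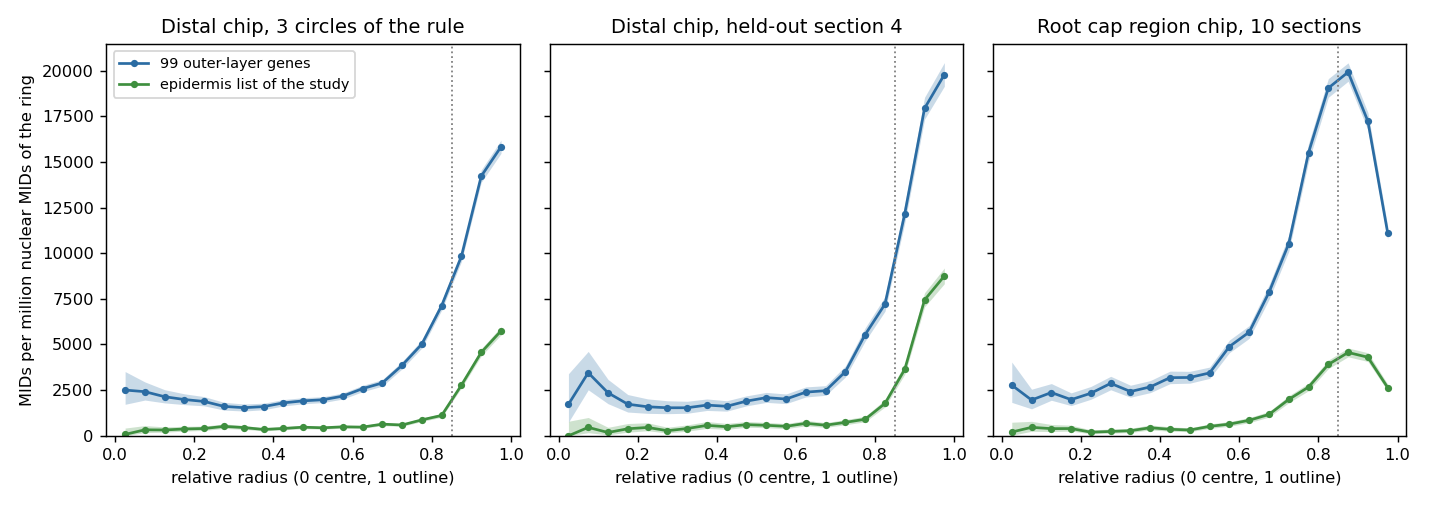
CPM of the 99 outer-layer genes (blue) and the epidermis list of the study (green) in rings of relative radius from the centre (0) to the outline (1), with exact 95% Poisson limits shaded and the start of the outermost zone (0.85) dotted. On the distal chip the level rose to the outline, to 19777 CPM in the held-out section, and on the cap chip it was highest at 0.85 to 0.90, with 19912 CPM, and 11113 in the last ring.

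On the cap chip the set gave 31781 MIDs within the outlines, and 14452 of them (45.5%, limits 44.9 to 46.0%) lay in the outermost zone. Set against the share of all nuclear MIDs of each section, this was an excess of 0.66 on the log2 scale (0.64 to 0.68). For the epidermis list the excess was 0.74 (0.70 to 0.79) and for the root cap list 1.26, while the cortex list of the study lay below the share of all genes, at -0.80. Each of the 99 genes had at least 20 MIDs on this chip, the minimum set for a call, with a median of 156. A gene was called above expectation where the lower limit of its observed over expected MIDs in the outermost zone was above 1. In all, 77 of the 99 were called, where 4.97% of the 7143 genes that passed the same filters on the distal chip were, and 4.79% of all 18009 genes with enough MIDs. None of the 99 was called below expectation, as were 7.49% of all genes, and the other 22 were not called. The median of the 99 genes was 0.66 and that of all genes -0.11.

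The values of single genes ran from -0.48 to 1.18. Among genes with at least 50 MIDs the highest was TraesCS4A03G0657700, unnamed in the tables, with 56.4% of 307 MIDs in the outermost zone (1.18, limits 0.95 to 1.39). The lowest was TraesCS4D03G0117900, also unnamed, with 17.7% of 79 MIDs (-0.48, limits -1.35 to 0.27). This gene, TraesCS3A03G0224200 (-0.31, 25 MIDs) and TraesCS5D03G0073400 (-0.07, 41 MIDs) were the only ones of the 99 below 0, and none of the 3 was called. In the held-out distal section TraesCS4D03G0117900 had 42.6% of its 54 MIDs in the outermost zone (29.2 to 56.8%).

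**Figure D3:**
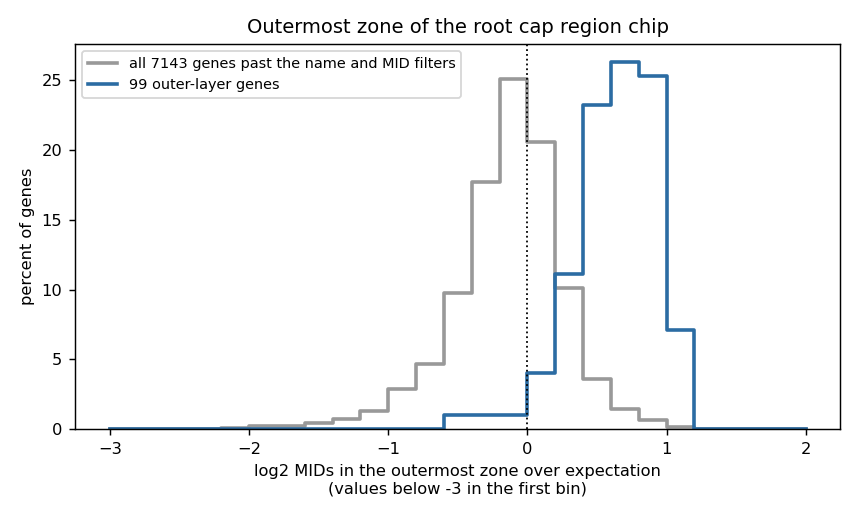
Share of genes (percent) by log2 of observed over expected MIDs in the outermost zone of the cap chip, for the 99 outer-layer genes (blue) and the 7143 genes that passed the filters on name and MIDs (grey). Of the 99 genes, 96 lay above 0, with a median of 0.66 where that of the 7143 was -0.11.

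The rim was not equally sharp in each section. In sections 1 to 10 the excess of the set in the outermost zone was -0.39, 0.26, 0.11, 1.13, 0.43, 0.93, 1.15, 0.24, 1.15 and 0.72 on the log2 scale. It was below 0 in section 1, where the epidermis list stood at -0.38 and where 45.3% of all nuclear MIDs lay in the outermost zone, the most of any section. In section 3 the limits included 0 (-0.07 to 0.29). The set still had a ring in section 1, at 0.65 to 0.70 of the radius, with 16663 CPM there against 2631 within 0.50 of the radius. The other sections had their highest ring between 0.75 and 0.95. That ring was 5.09 to 11.6 times the level within 0.50 of the radius in sections 1, 2, 4, 5, 6, 7, 9 and 10, and 2.08 and 1.88 times in sections 3 and 8, which also had the fewest MIDs.

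Distance from the outline, counted in spots, also placed a peak of the set just inside it, on a scale that does not depend on section size. On the cap chip the density of the set was highest 50 to 75 spots inside the outline, with 9.79 MIDs per 1000 spots, and 0.831 at 275 to 300 spots inside. In the held-out distal section the peak was 25 to 50 spots inside with 33.0 per 1000 spots, against 3.80 at 275 to 300 spots inside. MIDs of the set were also recorded outside the outlines. At 275 to 300 spots outside, the density was 13.2 per 1000 spots around the held-out section, 10.6 around the circles and 2.24 around the sections of the cap chip, each higher than at the same distance inside. These densities are of the set alone and are not set here beside those of all genes. The study describes diffusion of transcripts outside its sections, and its part in these values was not tested. With the density outside the outlines subtracted gene by gene, the excess on the cap chip was 1.46 in place of 0.66. The density outside exceeded that deep inside the outlines, so the subtraction also lowered the expected MIDs. The value of 1.46 is therefore no measure of the rim without diffusion. With this subtraction, 61 genes in place of 77 were called above expectation, and the share of all genes called was not counted. The subtraction was not run for the held-out distal section.

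By section, the 99 genes together made up 9228, 10247, 6708, 10276, 19701, 10789, 7762, 6255, 9868 and 17814 CPM in sections 1 to 10. Sections 5 and 10, which hold most root cap list MIDs, were the highest, and sections 3 and 8 the lowest. The root cap list itself stood at 5047 and 3666 CPM in sections 5 and 10 and between 11.1 and 83.2 in the other 8. The epidermis list went another way, at 3345, 2725, 940, 1615, 884, 3475, 2118, 432, 1516 and 737 CPM. The rise of the set in sections 5 and 10 came from 2 genes, picked out after their values were seen. Without TraesCS1D03G0780000 and TraesCS1A03G0810500, the other 97 genes stood at 9520 and 8688 CPM in sections 5 and 10, within the range of the other sections (6044 to 9937).

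**Figure D4:**
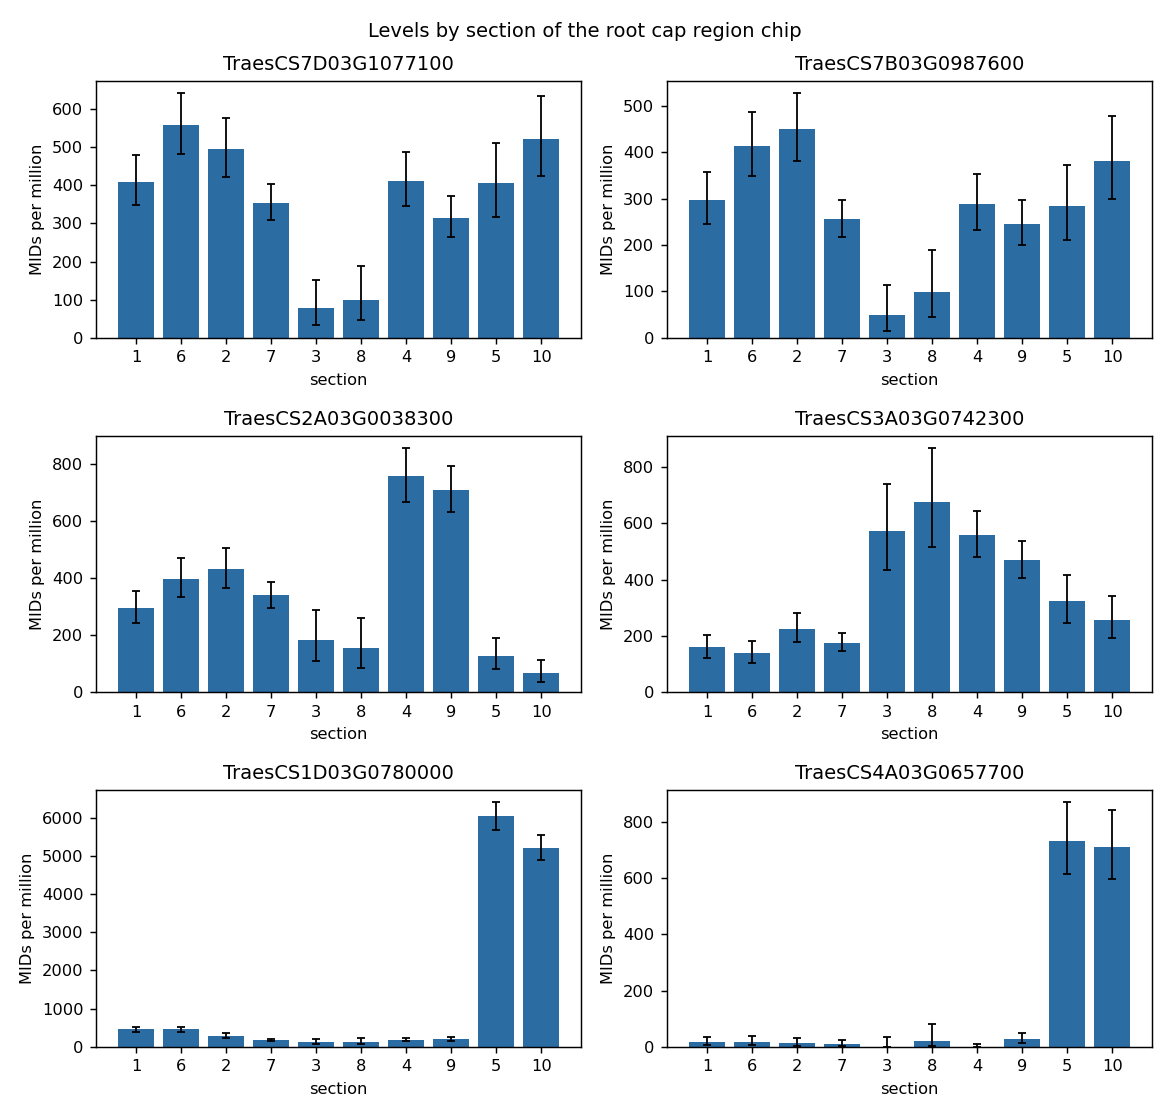
Level (CPM) of 6 outer-layer genes in each section of the cap chip, with sections at the same place side by side and error bars for exact 95% Poisson limits. The agglutinin gene TraesCS7D03G1077100 and TraesCS7B03G0987600 are lowest in sections 3 and 8, the apyrase gene TraesCS2A03G0038300 is highest in 4 and 9, and TraesCS1D03G0780000 and TraesCS4A03G0657700 stand out in 5 and 10.

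These 2 genes carry no name in the tables. TraesCS1D03G0780000 stood at 6041 and 5223 CPM in sections 5 and 10 and at 122 to 458 in the other 8. TraesCS1A03G0810500 had 745 and 757 MIDs in the same sections, with limits of 3848 to 4449 and 3630 to 4191 CPM, against 88.6 to 492 in the others. The levels in sections 5 and 10 together were 20.7 and 14.02 times those of the rest. Both genes were picked out by these levels, so the gap follows from the choice, and other genes with such a gap were not counted. Both were also among the genes with most MIDs in the distal circles, where the choice asked for at least 100. In the held-out distal section 67.5% of 581 MIDs of the first and 74.0% of 581 of the second lay in the outermost zone. A gene with a nearby ID, TraesCS1A03G0810300, had 2829 MIDs in the circles and was left out by the fold between them.

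Sections at the same place of their series were alike in the pattern of the 99 genes. Across the 99 genes, the deviations of log2(CPM + 5) from the gene's mean over sections correlated between the sections of a pair with a Pearson r of 0.32 to 0.86 (median 0.67; Spearman's rho 0.34 to 0.81). The 40 other pairs of sections gave -0.75 to 0.58 (median -0.19). Over the 7143 genes that passed the filters the same pairs gave 0.24 to 0.64 (median 0.51) and the 40 others -0.53 to 0.31 (median -0.26). Genes are not independent replicates, and the sections share 1 library, so these values are descriptions. In 9 of the 10 sections the most similar section was the one at the same place, and 45 of the 99 genes had their 2 highest sections at the same place, where 31.4% of the 7143 genes that passed the filters did.

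Counted by the place with their highest level, 30 of the 99 genes were highest in sections 5 and 10, where 16.5% of the 7143 genes that passed the filters were. The count was 27 in sections 1 and 6 (26.4% of the 7143), 21 in sections 4 and 9 (22.6%), 11 in sections 3 and 8 (15.2%) and 10 in sections 2 and 7 (19.3%). At least 2-fold over the other sections, 23 genes were highest in sections 5 and 10, against 8.29% of the 7143. Such genes numbered 18 in sections 1 and 6 (10.6%), 7 in sections 4 and 9 (7.7%), 6 in sections 3 and 8 (6.54%) and 3 in sections 2 and 7 (3.61%). Of the 5 places, sections 5 and 10, with most root cap list MIDs, showed the widest gap between the set and the background. Whether root cap cells gave these MIDs was not tested.

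**Figure D5:**
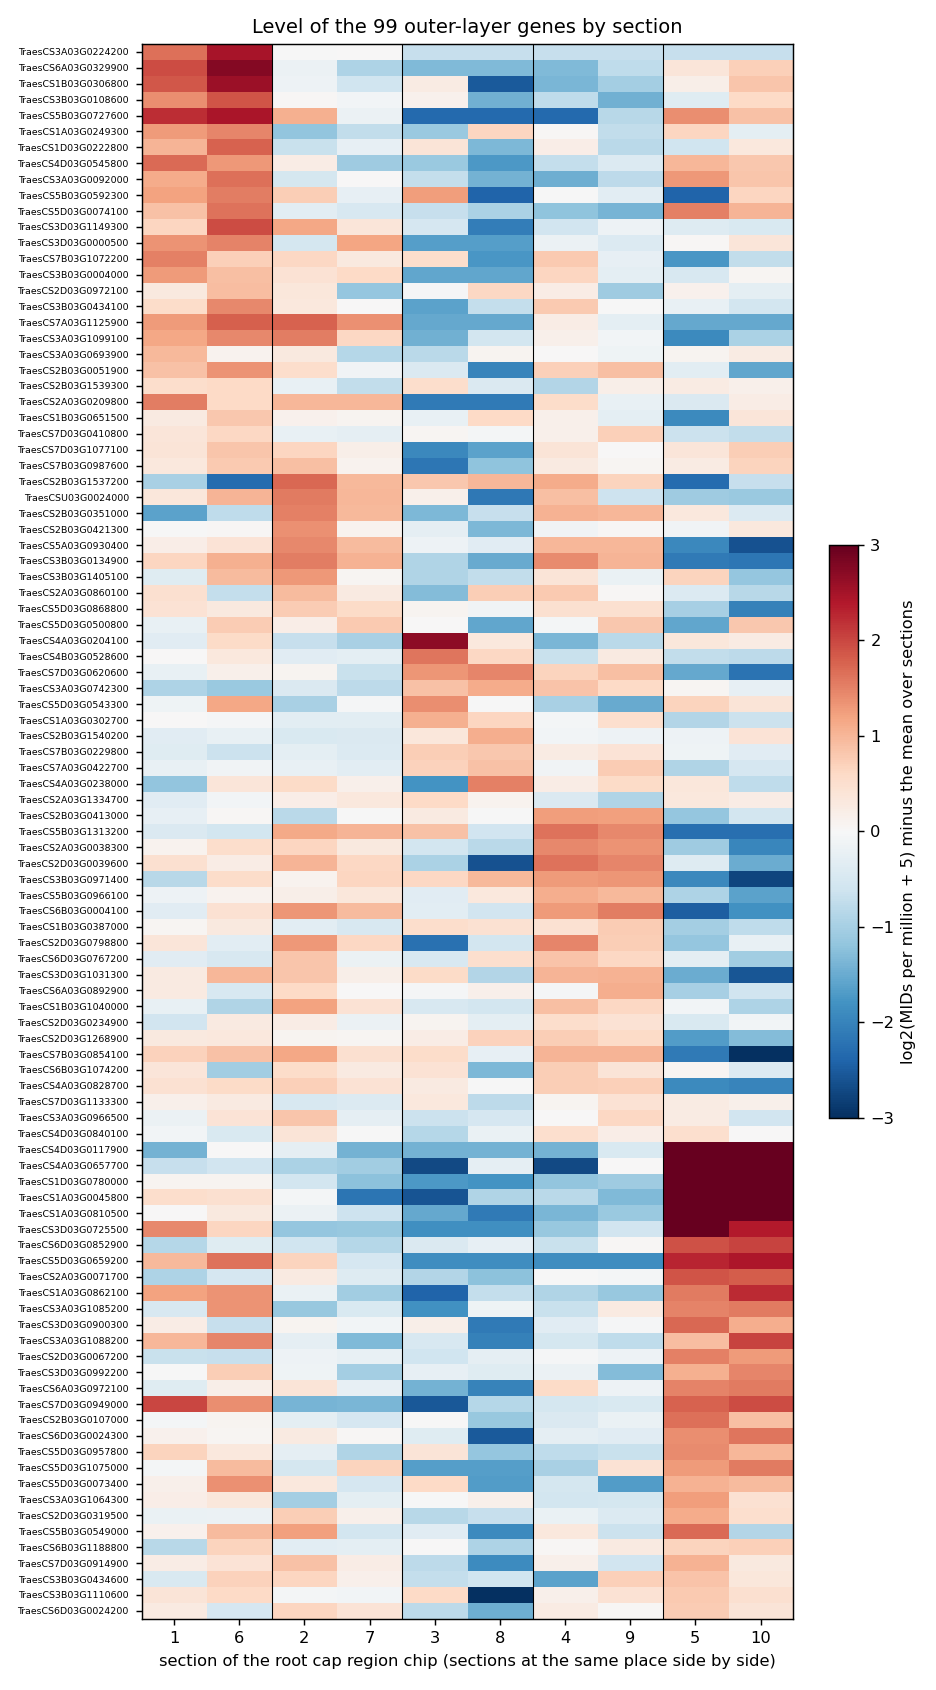
Level of each of the 99 genes (rows) in the 10 sections of the cap chip (columns, sections at the same place side by side), as log2(CPM + 5) minus the gene's mean over sections, with colours saturated at 3 either way. Genes are grouped by the place with their highest level, 27 in sections 1 and 6 at the top and 30 in sections 5 and 10 at the bottom.

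Several other genes were high in sections 5 and 10. TraesCS4A03G0657700 stood at 734 and 712 CPM there and at 0 to 27.7 in the other 8 sections, 52.3 times as high. Where a section gave no MID, the floor of 3 MIDs is 29.1 CPM in section 3 and 9.09 in section 4. TraesCS4D03G0117900 stood at 200 and 186 CPM in sections 5 and 10, with 72 of its 79 MIDs. It was measured at 0 to 8.49 in the others, where the floor for a count of 0 is 33.2 in section 8. For TraesCS1A03G0045800 the levels were 311 and 315 CPM against 0 to 38.2 elsewhere. The 3 genes named subtilisin-like protease SBT5.3, secreted proteases, were high in both sections as well. TraesCS2A03G0071700 stood at 422 and 402 CPM against 44.3 to 134 elsewhere, TraesCS2D03G0067200 at 433 and 366 against 90.5 to 145, and TraesCS2B03G0107000 at 411 and 242 against 55.4 to 136.

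Within sections 5 and 10 these genes did not share 1 radius. Of the MIDs of TraesCS4A03G0657700 in these sections, 58.5% lay in the outermost zone and 35.2% between 0.70 and 0.85, close to the root cap list with 60.6% and 32.9%. The 3 SBT5.3 genes together had 52.6% and 35.4%, and the agglutinin gene 43.7% and 44.8%. For the pair TraesCS1D03G0780000 and TraesCS1A03G0810500 the band lay further in, with 30.8% in the outermost zone, 39.6% between 0.70 and 0.85 and 21.6% between 0.50 and 0.70. TraesCS1A03G0045800 had 29.1% and 46.2% in the outer 2 zones. TraesCS4D03G0117900 had 16.7% in the outermost zone, 29.2% between 0.70 and 0.85 and 33.3% between 0.50 and 0.70, on 72 MIDs. The MIDs of all nuclear genes in these sections had 24.2% in the outermost zone.

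Sections 1 and 6, the pair with the highest levels of the epidermis list, were the highest place for 27 of the 99 genes. That is near the 26.4% of the 7143 genes that passed the filters. The 4 genes given here were picked after their values were seen. TraesCS6A03G0329900 stood at 43.2 and 79.2 CPM in these sections and at 0 to 15.5 in the others. TraesCS3A03G0224200 stood at 20.3 and 39.6 and was measured at 0 to 3.12 in the others, on 25 MIDs in all. The floor for its counts of 0 is 33.2 CPM in section 8. TraesCS1B03G0306800 stood at 99.2 and 167 against 0 to 46.4, and TraesCS5B03G0727600 at 112 and 133 against 0 to 61.1. The tables name none of these 4 genes. With counts of 0 taken at 3 MIDs, both sections exceeded the other 8 in each but TraesCS3A03G0224200. This follows in part from how they were picked, and the share of all genes that do so was not counted.

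The apyrase genes were highest in sections 4 and 9. TraesCS2A03G0038300 stood at 758 and 710 CPM there and at 67.0 to 431 in the others, and TraesCS2D03G0039600 at 709 and 643 against 33.2 to 464. TraesCS3B03G0971400, an uncharacterized protein, stood at 245 and 257 in these sections and at 10.3 to 199 in the others. TraesCS7D03G0620600, another uncharacterized protein, was highest in sections 3 and 8, which gave the fewest MIDs, with 233 and 255 CPM against 15.5 to 171. TraesCS3A03G0742300 stood at 572 and 675 CPM in these sections, at 558 and 469 in sections 4 and 9 and at 139 to 322 in the others. The glucosidase gene TraesCS2D03G1268900 was spread more evenly, at 715, 610, 679, 961, 178, 724, 602, 930, 865 and 232 CPM in sections 1 to 10, with its lowest levels in sections 5 and 10.

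Genes that carry the same name on matching chromosomes of different subgenomes were compared as shares of their joint MIDs. Only genes of the set were counted, so any copy that did not pass its filters is missing from the joint MIDs. The distal counts include those that the choice used. The RAP2-13-like factors, of the AP2/ERF family, were near even in the distal sections, with 33.0% for the 7A gene TraesCS7A03G0422700, 34.2% for the 7B gene TraesCS7B03G0229800 and 32.7% for the 7D gene TraesCS7D03G0410800, and had 27.6%, 41.7% and 30.7% on the cap chip. The PRMS-like genes had 30.1% for 6A (TraesCS6A03G0892900), 29.5% for 6B (TraesCS6B03G1074200) and 40.3% for 6D (TraesCS6D03G0767200) in the distal sections, and 27.5%, 35.5% and 37.0% on the cap chip. The SBT5.3 genes had 25.2% for 2A, 41.4% for 2B and 33.5% for 2D in the distal sections, and 31.0%, 32.0% and 37.0% on the cap chip. The apyrase genes shifted most in pooled share. The 2A gene had 72.5% of the joint MIDs in the distal sections and 51.4% on the cap chip, and the 2D gene 27.5% and 48.6%. Their balance also varied within each chip. MIDs of 2A and 2D were 111 and 67 in circle 1 and 321 and 63 in the held-out section. On the cap chip they stood at 171 and 77.5 CPM in sections 3 and 8, and at 96.3 and 123 in sections 5 and 10. The pair named sarcoplasmic reticulum histidine-rich calcium-binding protein-like, after an animal protein, kept the 3A gene TraesCS3A03G1064300 ahead of the 3D gene TraesCS3D03G0992200, with 68.4% and 63.8% on the 2 chips. The pair of 1 uncharacterized protein on 3A (TraesCS3A03G0966500) and 3D (TraesCS3D03G0900300) was near even, with 52.1% and 51.2% for 3A. Copies of near identical sequence can share reads, and how such reads were counted was not stated in the sources.

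Between chips, levels were compared in CPM within the sections, which sets 1 library against another and not the regions. The 99 genes together made up 10406 CPM on the cap chip and 6175 on the distal chip. The distal level includes the 3 circles whose values chose the genes, and the held-out section alone was not compared. At least 2-fold higher on the cap chip were 23 of the 99, where 3.77% of the 7382 genes that passed the filters were, and 3 were at least 2-fold lower, where 15.7% were. The other 73 lay between, and the median ratio was 1.15, against 0.835 for the genes that passed the filters. These counts depend on what is counted. With all MIDs of each chip, on and off the sections, 3 of the 99 were at least 2-fold higher and 39 lower. The median log2 ratio was then -0.74 in place of 0.20. The shares of the genes that passed the filters were not counted in this setting, so a shift of all genes cannot be told apart.

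The 5 highest ratios within sections belonged to TraesCS2D03G0039600, the 2D apyrase (385 and 43.6 CPM, ratio 8.83, limits 7.80 to 10.0), TraesCS5A03G0930400 (7.44), TraesCS5D03G0868800 (4.89), TraesCS7B03G0987600 (4.75) and TraesCS7B03G0854100, an uncharacterized protein (4.28). TraesCS5A03G0930400 stood at 293 and 39.4 CPM, and TraesCS5D03G0868800 at 605 and 124. None of these 5 had its highest levels in sections 5 and 10. The agglutinin gene had a ratio of 2.84 (2.61 to 3.09). The 5 lowest were TraesCS4A03G0204100, the quinone-oxidoreductase (7.53 and 25.7 CPM, ratio 0.294), TraesCS3A03G0224200 (0.339), TraesCS2A03G0209800 (0.421), TraesCS2A03G1334700, the cationic peroxidase (0.515), and TraesCS2B03G1539300 (0.530). The first 2 of these rest on 23 and 25 MIDs on the cap chip.

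Other genes with the same name keyword in the shortened copy of the study's cluster table served as a wider view of 4 name groups. Of all 18009 genes with enough MIDs on the cap chip, 4.79% lay above expectation and 7.49% below. Of 4 further genes named lectin or agglutinin, 2 had enough MIDs on the cap chip. Both, ricin B-like lectins of a cluster of unknown type, lay below expectation in the outermost zone. A shared keyword need not mean a shared family. Among other expansins 10 were tested, with 5 above and 2 below, and among other peroxidases 7, with 2 above and 1 below. Of the germins, none of which is in the set, 7 were tested, with 4 above and 0 below. The study's clusters of these genes differed. Those above were of the epidermis cluster, except for the xylem genes TraesCS3A03G0824200, an expansin, and TraesCS3B03G0487900, a germin. The expansins and the peroxidase below were of the xylem or endodermis/phloem clusters. The expansin-B2-like gene of the set, TraesCS1B03G0651500, had an excess of 0.87, and the genes of that name on 1A and 1D, TraesCS1A03G0558900 and TraesCS1D03G0538300, had 0.78 and 0.63. So the copies outside the set, which did not meet its filters, also lay at the rim of this chip.

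Features that the choice did not use were set beside those of all genes. By subgenome 29 of the 99 IDs were A, 33 B and 36 D, and 1 was unassigned, against 33.4%, 33.5% and 32.5% of the 7387. By chromosome group, 23 (23.2%) lay on group 3, which holds 13.3% of the 7387, and 20 on group 2 (20.2% against 15.1%). MIDs of the set were assigned to exons for 97.9% on the cap chip and 97.6% on the distal chip, against 76.4% and 86.1% of all MIDs within sections. On the distal chip 6 of the 99 genes had under 50% of their MIDs in exons, and they were named here after their values were seen: TraesCS1A03G0302700 (6.99%), TraesCS2D03G0319500 (10.7%), TraesCS4B03G0528600 (22.0%), TraesCS3D03G1149300 (23.4%), TraesCS4A03G0238000 (31.8%) and TraesCS2B03G0413000 (47.3%). Around the rim, with the outermost zone cut into 8 sectors, the highest sector exceeded the lowest by 1.32 to 2.90 times on the distal chip and by 1.51 to 4.98 times on the cap chip, in CPM of the set. The held-out distal section was the most even and section 7 the least.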

How the data were processed

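Stereo-seq data of 2 chips were used, 1 of the root cap region and 1 of the distal root region. The deposited values were MID counts per gene and spot, made by the authors with SAW, and were not normalized, binned or limited to tissue. The study names an IWGSC assembly for its single-cell reads, while for the Stereo-seq reads it states alignment within SAW and no build. No reference sequence was used, so no coordinates or sequences are printed. Section outlines were drawn by hand on maps of all MIDs before any gene was mapped. The members and gene lists were chosen with earlier results of these data known. Counts were summed within outlines and by relative radius (distance from the centroid over that of the outline) with Python 3.11.15, numpy 2.4.6, scipy 1.17.1 and pandas 2.3.3, and steps were tested on simulated data. MIDs of organelle genes were left out of totals. Expected MIDs in the outermost zone are each section's share of all nuclear MIDs times the gene's MIDs. The text names the agglutinin gene, the 10 genes with most MIDs, genes sharing a protein name, the 5 highest and 5 lowest chip ratios, the genes beside each cut-off, and the extremes of excess. Other genes were named after their values were seen, as were the genes given by section. Zone boundaries, outlines, circles, minimums, exonic MIDs, off-tissue MIDs and single sections were varied.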

Additional observations from a re-analysis of the deposited data

How the results depend on the processing

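No paired analysis was possible because each region has 1 library and no replicate number pairs sections. The number of genes chosen, 99, was 184 with a minimum of 50 MIDs and 46 with 200, 177 with a share of 40% and 57 with 60%, and 62 within 2-fold. It ranged from 44 to 101 when 1 circle was left out. The excess of the set on the root cap region chip, 0.66 on the log2 scale, stayed above 0 in each alternative run. It was 0.71 with the zone from 0.80, 0.48 from 0.90, 0.87 with outlines shrunk by 5% and 0.35 with outlines grown by 5%. It was 0.56 with distance to the nearest outline point and 1.46 with the density outside tissue subtracted, which also lowered the expected MIDs. It was 0.71 with exonic MIDs, 0.69 without the pair highest in sections 5 and 10, and 0.55 to 0.81 when 1 section was left out. The number of genes called above expectation, 77, was 45 with grown outlines, 54 with the zone from 0.90 and 61 with the density outside tissue subtracted. It was 70 to 86 in the other settings and 65 to 87 when 1 section was left out. The share of all genes called was not counted in these settings. The share in the held-out distal section, 66.7%, was 75.9% from 0.80, 50.7% from 0.90, 62.3% with a grown outline and 67.8% without the gene with most MIDs. Between chips, all MIDs gave 3 genes higher, 39 lower and a median log2 ratio of -0.74. The shares of all genes in this and the following chip settings were not counted. Exonic MIDs gave 5 lower. A minimum of 100 MIDs gave 0 lower and a median of 0.58. Leaving out 1 section gave 22 to 25 higher and 3 to 6 lower (5 without section 1, 6 without section 6), with a median of 0.11 to 0.34. The lower of sections 5 and 10 over the highest other section, 1.65 for the set, was 1.54 with shrunk outlines, 1.74 with exonic MIDs and 0.874 without that pair, an alternative chosen after seeing the data. The causes were not tested. Depth limits single genes most in sections 3 and 8, where 3 MIDs are 29.1 and 33.2 CPM.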

Other observations

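Of the 37 genes that met the share but not the fold between circles, some carried names close to those of the set. TraesCS1A03G0542400, named chitinase 8-like, an enzyme class that cuts chitin, was 26.0 times as high in circle 1 as in circles 2 and 3, with 477, 41 and 12 MIDs in circles 1 to 3. The peroxidase 12-like gene TraesCS2D03G1302200 was 30.7 times as high there and the germin-like gene TraesCS6A03G0967600 was 35.8 times as high. In the other direction, TraesCS1A03G0810300 had 212, 1737 and 880 MIDs in circles 1 to 3, and 64.2% of its 2114 MIDs in the held-out section lay in the outermost zone. TraesCS4A03G0657600, next in ID order to TraesCS4A03G0657700 of the set, had 483, 233 and 102 MIDs in the circles and 81.8% of 264 in the outermost zone of the held-out section.

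Among genes that the choice left out by name, 8 of 374 genes ending in LC with enough MIDs met the share and the fold. All 18 genes of the epidermis list had at least 50% of their MIDs in the outermost zone of the circles (median 73.1%), and 7 of them also met the fold.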
